A study of Homo sapiens with 10 samples.

Results

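Androgen-responsive and apocrine genes were examined for the histone mark H3K27ac in 2 breast cancer cell lines. The 8 genes, of 19970 protein-coding genes in GENCODE release 44, were FKBP5, ZBTB16, TMPRSS2, KLK3, CLDN8, PIP, AZGP1 and ALOX15B. They were taken as a named list, and each was given a window of its gene body with 50 kb on each side. Peaks from all lists that overlapped were merged, and 58 of the 76044 merged regions fell in these windows. The study measured H3K27ac by ChIP-seq in SKBR3 and MDA-MB-453 cells, and the authors called peaks in each library separately, on hg38. Both lines are established cell lines, so each stands for 1 tumour, and each was deprived of serum for 8 h. The treated groups then received the cytokine TWEAK at 10 ng/ml for 48 h with a second dose at 24 h, and the untreated groups received none. Each of the 4 groups (line by treatment) had 2 libraries and therefore 2 peak lists. The methods call the ChIP-seq replicates of the cell lines biological, and p-values measure the spread between these libraries.

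Steroid hormone receptors, once bound by their hormone, enter the nucleus and bind DNA at response elements made of paired half-sites, and several of these receptors can bind the same elements. Apocrine breast tumours usually lack the oestrogen receptor and express secretory genes such as PIP and AZGP1, and MDA-MB-453 is widely used as a cell line of this kind. H3K27ac marks active promoters and enhancers. Among the members, FKBP5 encodes a co-chaperone of steroid receptors, ZBTB16 a zinc finger transcription factor, TMPRSS2 a transmembrane serine protease, KLK3 the prostate-specific antigen, and CLDN8 a tight junction protein. PIP and AZGP1 encode secreted proteins of apocrine and other glands, and ALOX15B encodes an arachidonate lipoxygenase.

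The element searched for was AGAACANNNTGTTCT, where N is any base, allowing up to 2 mismatches in the 12 fixed bases. It reads the same on both strands. The 3 stretches that follow are shown as the perfect match and as 1 match for each of 2 further members that peaks of only 1 line covered, on hg38, each with 30 bases of flank and the element in capitals. The FKBP5 stretch, chr6:35602052-35602126 on the minus strand, lies in an intron and is the only perfect match in the 58 regions. The ZBTB16 stretch, chr11:114164087-114164161 on the plus strand, is intronic and has the substitutions A3T and T13G, counted from 1 at the 5′ end of the element. The TMPRSS2 stretch, chr21:41470416-41470490 on the minus strand, lies inside the gene and has G2A and A3T.
FKBP5: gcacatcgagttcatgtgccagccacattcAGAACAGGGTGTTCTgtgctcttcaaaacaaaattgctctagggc
ZBTB16: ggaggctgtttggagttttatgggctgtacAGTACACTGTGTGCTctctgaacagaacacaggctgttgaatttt
TMPRSS2: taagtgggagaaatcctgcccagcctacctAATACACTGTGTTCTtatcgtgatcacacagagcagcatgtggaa

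The perfect FKBP5 element was covered by a peak in all 8 lists. The ZBTB16 element was covered in 4 MDA-MB-453 and 0 SKBR3 lists, and the TMPRSS2 element was covered in 4 SKBR3 and 0 MDA-MB-453 lists. The ZBTB16 region itself was held by all 8 lists, at 54 to 74.5 in SKBR3 and 76.7 to 81 in MDA-MB-453. A second match in it, with 2 mismatches, was covered in all 8, and the narrower SKBR3 peaks ended before the element shown.

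Promoter sequences, taken from RefSeq (GRCh38.p14) as the 250 bases before the transcription start site (TSS), were at hand for 4 of the 8 members. The 3 below are shown because a peak over them separated the lines or, for KLK3, because the promoter held an element match and no peak. PIP (chr7:143131827-143132076, plus strand) and the upstream FKBP5 promoter (chr6:35728584-35728833, minus strand) were overlapped by a peak in 4 MDA-MB-453 lists and 0 SKBR3 lists. At FKBP5, peaks of the SKBR3 TWEAK lists ended short of this promoter, at 35727941 (replicate 1) and 35728571 (replicate 2), so the split depended on called peak edges. The KLK3 promoter (chr19:50854665-50854914, plus strand) was overlapped in 0 of 8 lists. Its match, in capitals, has 2 mismatches.
PIP: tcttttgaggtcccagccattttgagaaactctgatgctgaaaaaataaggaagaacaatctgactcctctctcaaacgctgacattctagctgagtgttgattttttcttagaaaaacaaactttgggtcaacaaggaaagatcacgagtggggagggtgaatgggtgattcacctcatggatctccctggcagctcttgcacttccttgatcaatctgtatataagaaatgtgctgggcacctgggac
FKBP5: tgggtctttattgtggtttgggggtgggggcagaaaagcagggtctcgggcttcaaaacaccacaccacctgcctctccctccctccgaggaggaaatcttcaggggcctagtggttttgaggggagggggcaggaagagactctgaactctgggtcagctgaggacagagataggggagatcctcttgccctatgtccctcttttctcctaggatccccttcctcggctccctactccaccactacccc
KLK3: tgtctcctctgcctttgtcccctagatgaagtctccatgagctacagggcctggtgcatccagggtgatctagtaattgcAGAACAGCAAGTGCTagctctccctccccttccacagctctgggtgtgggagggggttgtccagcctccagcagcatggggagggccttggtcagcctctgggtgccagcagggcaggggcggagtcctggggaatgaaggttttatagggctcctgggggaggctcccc

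An element match with up to 2 mismatches was present in 1.18% of all 35116 RefSeq promoters of this length. The PIP promoter and the upstream FKBP5 promoter held no match.

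The SKBR3 lists were longer than those of MDA-MB-453, with between 43684 and 51687 peaks against 36148 to 37813, and covered 92.1 to 105.7 Mb against 70.5 to 72.1 Mb. The longest, SKBR3 TWEAK replicate 2, also covered most. Read counts were not used here, so depth is unknown, and a region missing from a list may have had signal under the authors' threshold. ERBB2 had a TSS peak at about the 100th percentile of every list, 4 of 5 luminal and HER2 markers had a TSS peak in all 8 lists, and CDH1 had one in the 4 MDA-MB-453 lists only. Of 6 markers of other cell types, 4 had no TSS peak in any list, including the immune gene PTPRC, while CDH5 and COL1A1 had one in all 8. In bulk chromatin, acetylation in more cells and more acetylation per cell cannot be told apart.

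NR3C1, the glucocorticoid receptor gene, had a TSS peak in all 8 lists, and PGR had none in any list. In covered length both windows were higher in MDA-MB-453 (NR3C1 1.23 and PGR 1.52; limma, adjusted p = 0.00127 and 2.41e-05), and that of ESR1, with a TSS peak in 1 list of each line, was lower (-0.41, limma, adjusted p = 0.01).

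To ask how the lines differed at the members, the length of each window that peaks covered was compared as log2(kb + 1) with limma over 18251 gene windows, with Benjamini-Hochberg adjustment at 0.05. Of the 8 members, 6 had more covered length in MDA-MB-453 (CLDN8, AZGP1, PIP, FKBP5, ZBTB16 and KLK3), where 27% of all windows did. TMPRSS2 alone had less, where 47.6% of all windows did, and ALOX15B did not pass the test. The median difference was 0.74 over the members and -0.23 over all windows. When each list was scaled to its total covered length, the all-window median became 0.15, 43.8% of windows were higher and 32.9% lower in MDA-MB-453, and 7 members were higher and TMPRSS2 was lower.

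**Figure D1:**
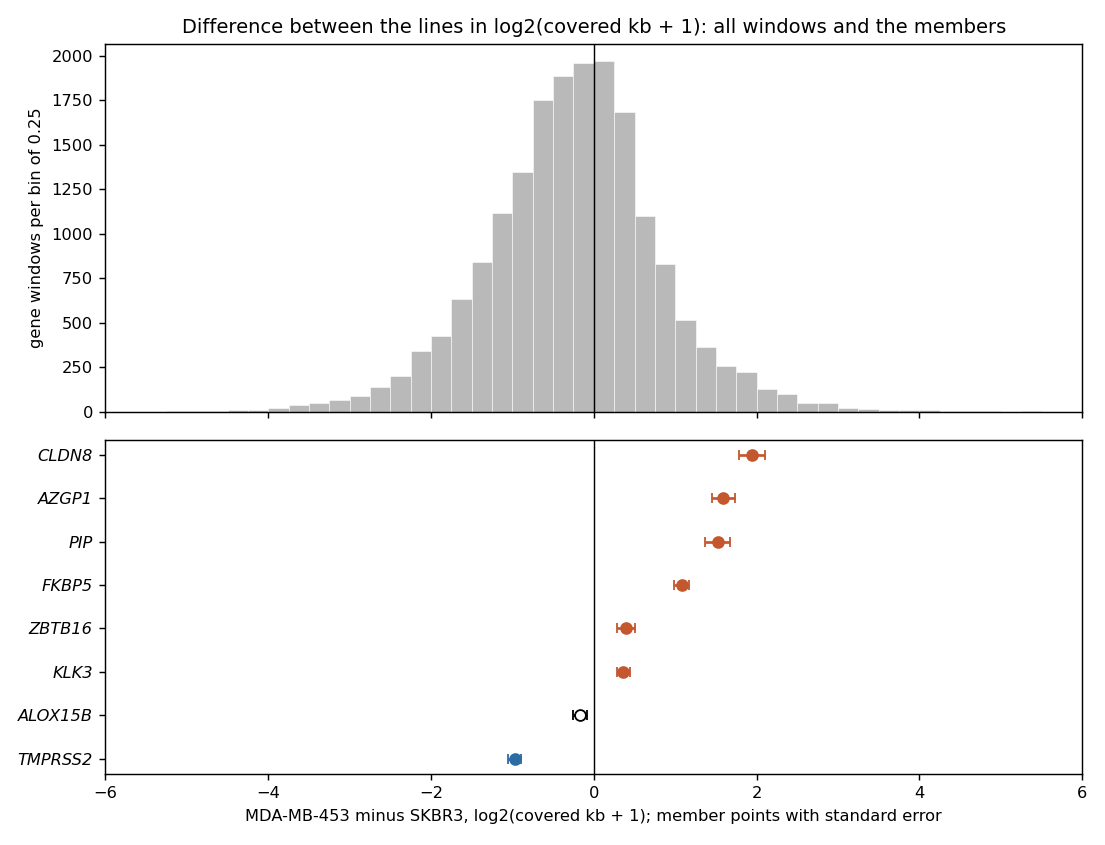
Difference between MDA-MB-453 and SKBR3 in log2(covered kb + 1). The upper panel counts all 18251 gene windows in bins and the lower panel gives each member with its standard error, orange for higher in MDA-MB-453, blue for lower and open for not called. CLDN8 stands furthest right at 1.94 and TMPRSS2 furthest left at -0.97.

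The FKBP5 window carried little covered length in SKBR3 and more in every MDA-MB-453 list. It was 4.48, 3.63, 5.71 and 6.79 kb in SKBR3 (untreated replicates 1 and 2, then TWEAK replicates 1 and 2, the order used throughout) and 11.1, 10.3, 12.8 and 13 kb in MDA-MB-453. The lines did not overlap, and the difference was 1.08 ± 0.09 (SE) on the log2(kb + 1) scale (limma, adjusted p = 2.86e-05). By the authors' score, the best peak of the window ranked at the 42nd, 53.1st, 37.6th and 69.4th percentile of the SKBR3 lists, against 87.2 to 88.9 in MDA-MB-453, a difference of 37.2 ± 6.77 percentile points (limma, adjusted p = 0.00258). In the untreated SKBR3 lists the best peak was not at a start site but 66 kb (replicate 1) or 76.1 kb (replicate 2) upstream of the canonical TSS.

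The added length lay at the start sites. At the upstream TSS a merged region of 7433 bp was covered over 339, 452, 1238 and 2829 bp in SKBR3 and over 5675, 5966, 7055 and 7133 bp in MDA-MB-453. At the canonical TSS, the covered length was 625, 695, 636 and 0 bp in SKBR3, the last list holding no peak there, and 2175 to 2906 bp in MDA-MB-453, with ranks of 74.6 to 76.3 against at most 48.3. The SKBR3 peaks at this TSS, held by 3 lists, began 0.04 to 0.06 kb downstream of it. In 0 of 4 SKBR3 lists did a peak reach the 250 bases before the start, which peaks of all 4 MDA-MB-453 lists did. Intronic regions 58.2 kb downstream and 35 kb upstream of the canonical TSS were held by the 4 MDA-MB-453 lists only, at mean percentiles of 18.8 and 20.7.

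The intronic FKBP5 region with the perfect element behaved differently from the promoters. Its percentile was 19.6, 10.9, 29.6 and 34.7 in SKBR3 and 35.9, 16.5, 32.7 and 18.3 in MDA-MB-453, so the lines overlapped. Its covered length also overlapped, at 936 to 2102 bp and 324 to 1246 bp. It was thus a low-ranked region in both lines.

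ZBTB16 differed less in length than in position. Its window was covered over 4.3, 4.84, 4.94 and 6.73 kb in SKBR3 and 6.76, 7.34, 6.99 and 7.24 kb in MDA-MB-453, a difference of 0.40 ± 0.11 (limma, adjusted p = 0.0106). The lines did not overlap, although SKBR3 TWEAK replicate 2 lay close to the lowest MDA-MB-453 list. At q under 1e-05 the difference was gone (-0.00, limma, adjusted p = 0.986). The best percentile, 72.9 to 80.5 against 76.7 to 81, overlapped and was not called (3.37 ± 1.98, limma, adjusted p = 0.169), but was called without SKBR3 TWEAK replicate 2 (4.89, limma, adjusted p = 0.0353), at q under 1e-05 (18.3, limma, adjusted p = 0.0153) and with lists cut to equal size (9.6, limma, adjusted p = 0.00527).

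No peak lay at the canonical ZBTB16 TSS in any list. An internal start site 119.8 kb downstream held a peak of 1590 to 1929 bp at the 62.8th to 65th percentile in the 4 MDA-MB-453 lists and none in SKBR3. Intronic regions 70.4 and 105.9 kb downstream were likewise held by MDA-MB-453 only, at mean percentiles of 41.1 and 33.4. In the opposite direction, an intronic region 137.6 kb downstream ranked at 73.5, 72.9, 66.7 and 57.6 in SKBR3 and was held by 1 MDA-MB-453 list, at 15.6. The region of the window held by SKBR3 alone lay at a TSS of the neighbour NNMT, at 48.9, 10.9, 64.6 and 80.5.

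TMPRSS2 was the member with more H3K27ac in SKBR3. Its window was covered over 19.7, 21.8, 14.7 and 16.9 kb in SKBR3 and 9.24, 8.64, 7.92 and 9.21 kb in MDA-MB-453. Every SKBR3 list exceeded every MDA-MB-453 list, with a difference of -0.97 ± 0.08 (limma, adjusted p = 2.90e-05). The direction held with lists scaled to total covered length (-0.56, limma, adjusted p = 6.20e-04), and the call was lost at q under 1e-05 (-0.50, limma, adjusted p = 0.0576). The best percentile did not separate the lines, at 82.3 to 88 and 81.9 to 88 (difference -0.0965 ± 1.37, limma, adjusted p = 0.955).

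The canonical TMPRSS2 TSS had a peak in all 8 lists, at 85.7, 77.6, 77.1 and 53.8 in SKBR3 and 88, 87.3, 84 and 80.5 in MDA-MB-453. The 3 regions held by SKBR3 only, in each of its lists, lay inside the gene. One 38.3 kb downstream, at an internal start site, was covered over 3728, 4703, 3359 and 5071 bp at the 75.4th to 85.3rd percentile of the SKBR3 lists, and it is the region that carries the TMPRSS2 element shown above. The next, 29.9 kb downstream, ranked at 69.1, 88, 65.1 and 79.7, and the last, 12.2 kb upstream of the canonical TSS, at 39.1, 48.3, 6.38 and 34.7. A further region 24.2 kb upstream, outside the gene, was held by the untreated SKBR3 lists only. Conversely, an intronic region 6.77 kb downstream held by all lists ranked at 40.6 to 68 in SKBR3 and 81.3 to 84.7 in MDA-MB-453.

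KLK3 had no peak in its gene body or at its TSS in any list. Its window was covered over 0.606, 0.625, 0.564 and 0.618 kb in SKBR3 and 1.08, 1.05, 1.01 and 1.08 kb in MDA-MB-453, which gave a difference of 0.36 ± 0.08 (limma, adjusted p = 0.00589). This length belonged to a strong region at the upstream edge of the window, present in all lists at 88.7 to 95.6, and to a small peak at a TSS of KLK15, held by the 4 MDA-MB-453 lists at 4.59, 21.5, 37.7 and 25. At q under 1e-05 the call was lost (0.13, limma, adjusted p = 0.119). The best percentile was that of the edge region and was not called (-3.32 ± 1.35, limma, adjusted p = 0.0643), except without SKBR3 untreated replicate 2 (-4.74, limma, adjusted p = 0.00587).

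CLDN8 showed the largest difference among the members. Its window held no peak in the untreated SKBR3 lists, 0.561 and 1.55 kb in the TWEAK lists of SKBR3, and 4.67, 4.26, 4.68 and 4.14 kb in MDA-MB-453. The lines did not overlap, with a difference of 1.94 ± 0.16 (limma, adjusted p = 2.25e-05). Of the 18251 windows, 433 had a larger difference in the same direction, towards MDA-MB-453. The TSS peak of CLDN8 ranked at 65.7, 75.7, 69.8 and 70.9 in MDA-MB-453, and 1 SKBR3 list held it (TWEAK replicate 2, at 19). A region 15.8 kb downstream was held by MDA-MB-453 only, at 40.3, 51.4, 45.9 and 36.4. The best percentile differed by 56.5 ± 7.12 points (limma, adjusted p = 4.66e-04).

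**Figure D2:**
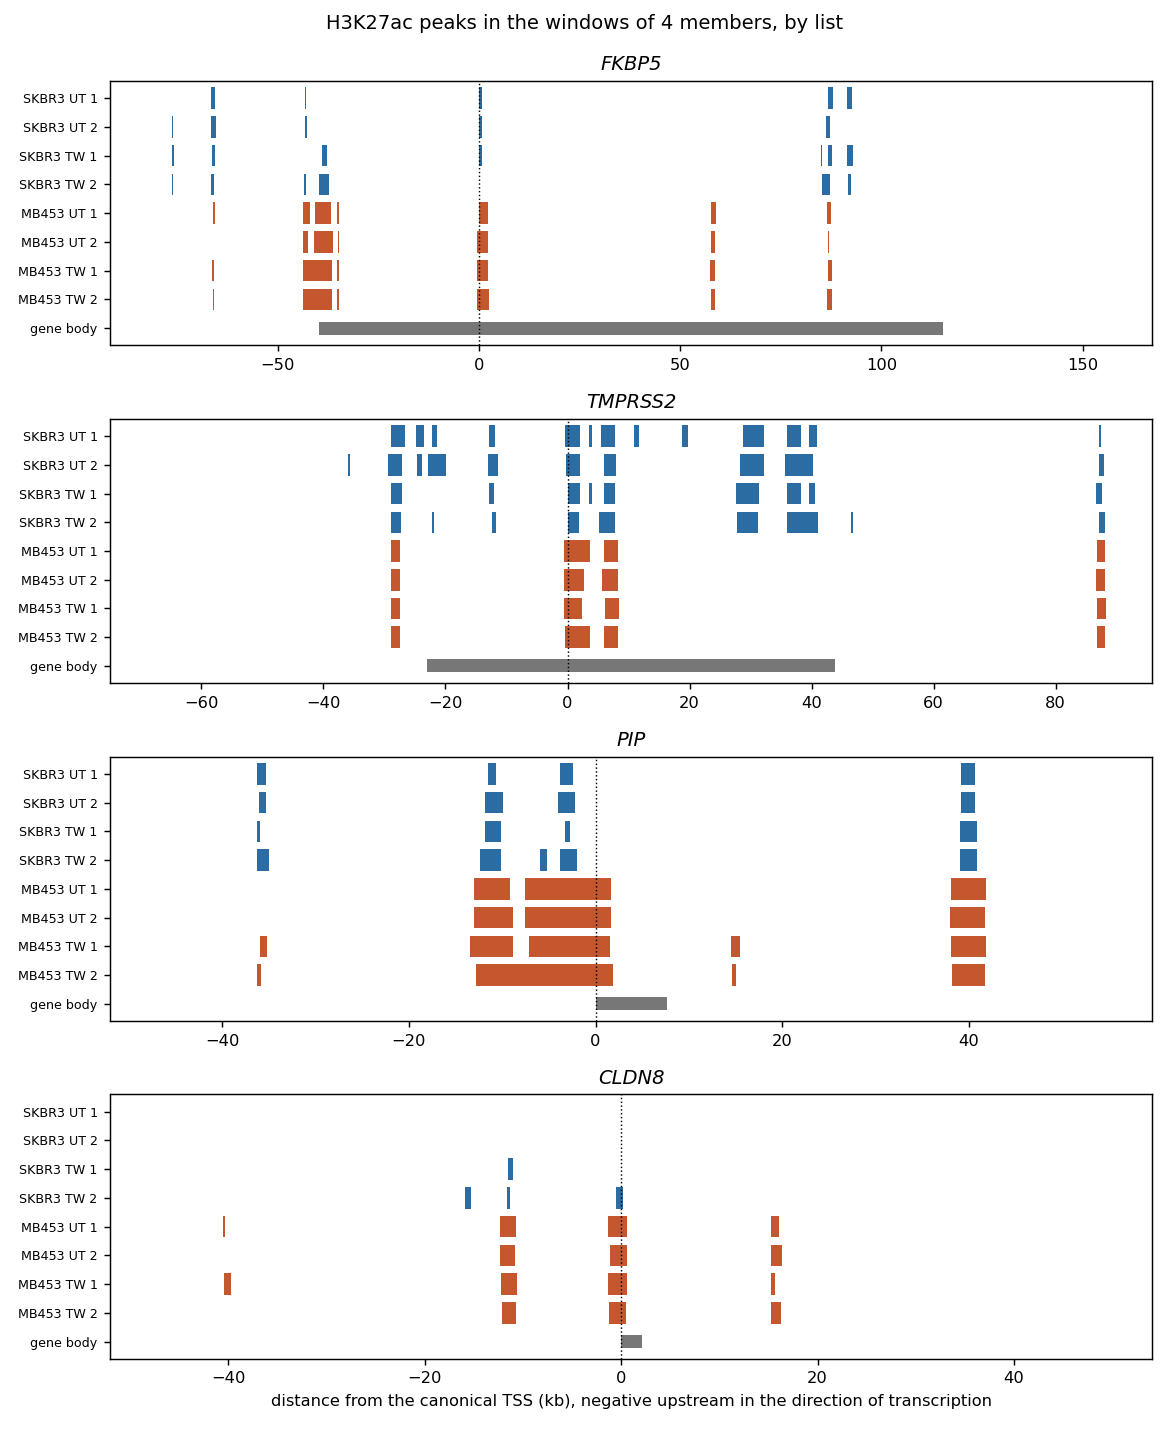
H3K27ac peaks in the windows of FKBP5, TMPRSS2, PIP and CLDN8, each row 1 peak list (UT untreated, TW TWEAK, MB453 MDA-MB-453), against distance from the canonical TSS in kb. Peaks at both FKBP5 start sites and around the PIP and CLDN8 starts are wider in MDA-MB-453, and the TMPRSS2 gene body holds peaks in SKBR3 that MDA-MB-453 lacks.

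Among the apocrine genes, PIP had a broad domain in MDA-MB-453. The window was covered over 4.68, 6.05, 4.52 and 7.81 kb in SKBR3 and over 16.8, 17.2, 19 and 19.1 kb in MDA-MB-453, a difference of 1.52 ± 0.15 (limma, adjusted p = 6.66e-05) with no overlap. The merged region at the PIP TSS was covered over 13079, 13531, 13361 and 14715 bp in MDA-MB-453, at the 77.9th to 86.8th percentile. The peak over the TSS itself ranked at 75.6 to 77.9 there. In SKBR3 the merged region was covered over 2231, 3781, 2238 and 4798 bp at the 40.7th to 52.7th, and none of these peaks lay within 1 kb of the TSS.

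A region 39.9 kb downstream of the PIP TSS was the top-ranked one of the window in MDA-MB-453. It ranked at 97.6, 97.9, 97.2 and 97.1 there and at 35.7, 59.4, 39.7 and 52.1 in SKBR3. The best percentile of the window differed by 48.2 ± 4.04 points (limma, adjusted p = 7.36e-05). Both merged PIP regions thus held peaks in both lines, and width and rank separated the lines. At the TSS itself presence did so too, since only MDA-MB-453 peaks reached it.

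AZGP1 had the longest covered length of the members in MDA-MB-453. It was 40.5, 42.4, 37.7 and 39.6 kb there and 18, 11.1, 12.1 and 10.4 kb in SKBR3, a difference of 1.59 ± 0.14 (limma, adjusted p = 2.97e-05) with no overlap. The region over the AZGP1 gene and TSS was covered over 6549, 8097, 5526 and 6522 bp in MDA-MB-453, and over 2268, 847, 1196 and 0 bp in SKBR3. A region 6.87 kb upstream was covered over 5560 to 6264 bp at the 62.4th to 74.4th percentile in MDA-MB-453, and 1 SKBR3 list held it (untreated replicate 1, at 10). The neighbours TRIM4, GJC3 and ZKSCAN1 each had a TSS region in this window.

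The best AZGP1 percentile did not pass the test (2.81 ± 1.69, limma, adjusted p = 0.179), except without SKBR3 TWEAK replicate 1 (4.71, limma, adjusted p = 0.0134) or in the gene body alone (31.6, limma, adjusted p = 0.0437). It was set in most lists by a region 23 kb downstream at 95.8, 83.8, 96.9 and 89.4 in SKBR3 and 96 to 97 in MDA-MB-453. The ranks overlapped, but the width did not, at 3335 to 4262 bp against 8314 to 8470 bp. Regions held by MDA-MB-453 only lay 46.5 kb downstream (at a TSS of GJC3), 21.6 kb upstream and 37.7 kb downstream, at mean percentiles of 42.8, 37.6 and 20.1.

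ALOX15B differed in the position of its regions, and its covered length gave no stable call. The window was covered over 11.9, 12.4, 12.6 and 10.7 kb in SKBR3 and 10.6, 11.4, 10.1 and 9.72 kb in MDA-MB-453, which overlapped (-0.17 ± 0.08, limma, adjusted p = 0.0753). Without SKBR3 TWEAK replicate 2 the call was for SKBR3 (-0.22, limma, adjusted p = 0.0207), as it was without peaks at start sites of other genes (-0.44, limma, adjusted p = 0.00767) and with flanks of 100 kb (-0.29, limma, adjusted p = 0.00564). Scaled to total covered length, the call was for MDA-MB-453 (0.24, limma, adjusted p = 0.0413). No peak lay within 1 kb of an ALOX15B TSS. A region 6.61 kb upstream ranked at 81, 69.1, 68.5 and 65.1 in SKBR3 and at 30.4, 20.3, 24.2 and 21.8 in MDA-MB-453. One 18.6 kb downstream ran the other way, at 74.7 to 81.7 against 83.5 to 86.4, and set the best percentile of the window (7.61 ± 1.58 points, limma, adjusted p = 0.00477).

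A further 2 ALOX15B regions were held by SKBR3 only, 27.2 kb downstream at 48.9, 34.9, 32.5 and 29.3 and 9.57 kb upstream at 6.94, 37.8, 20.7 and 39.1. The region held by MDA-MB-453 only lay at a TSS of ALOX12B, at 11.4, 36.3, 37.1 and 42.

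**Figure D3:**
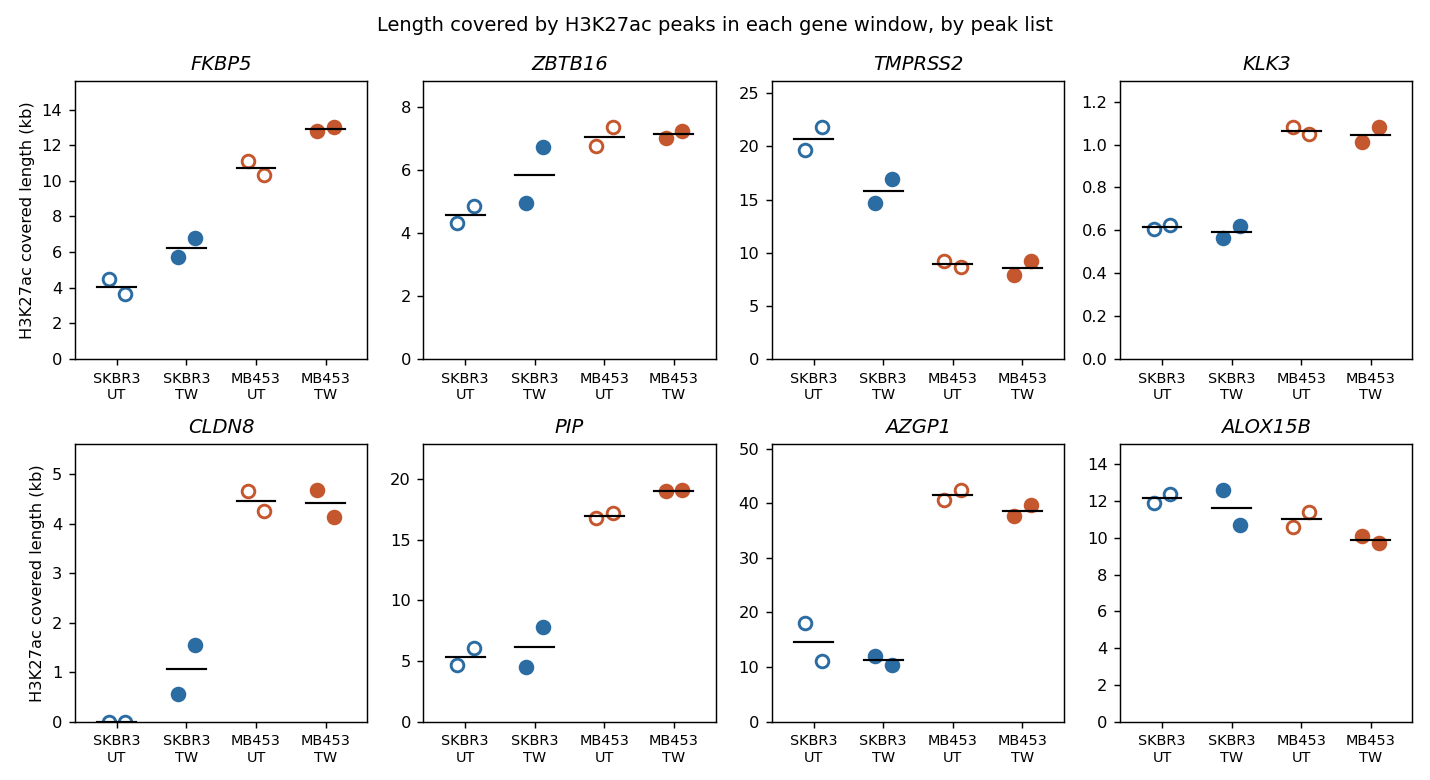
Length of each member's window covered by H3K27ac peaks (kb), by group (UT untreated, TW TWEAK, MB453 MDA-MB-453). Points are the 2 peak lists of a group and the line is their mean. The lines overlap for ALOX15B. Non-overlap was not counted over all windows, of which 27% were called higher and 47.6% lower in MDA-MB-453.

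In best percentile, 4 members were higher in MDA-MB-453 (CLDN8, PIP, FKBP5 and ALOX15B) and 0 were lower, where 29.4% of all windows were higher and 38.4% lower. Of these calls, 3 were lost with flanks of 100 kb, which can only raise the best percentile of a window: FKBP5 (1.24, limma, adjusted p = 0.208), CLDN8 (-2.11, limma, adjusted p = 0.489) and ALOX15B (0.0394, limma, adjusted p = 0.989). TMPRSS2 was then called lower (-6.01, limma, adjusted p = 0.00318).

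Counted as regions, 13 of the 58 were held by all MDA-MB-453 lists and no SKBR3 list, where 10.5% of all merged regions were. The reverse held for 6 (14.1% of all regions), 16 were held by all 8 lists (23.3%), and 23 followed another pattern. At q under 1e-05, 4 of 33 member regions were held by MDA-MB-453 only and 4 by SKBR3 only, where 14.6% and 11% of all regions were. Of the 13, 5 lay in the ZBTB16 window, 3 at AZGP1, 2 at FKBP5 and 1 each at KLK3, CLDN8 and ALOX15B. Of the 6, 3 lay at TMPRSS2, 2 at ALOX15B and 1 at ZBTB16. In all, 8 of the 58 regions lay at a TSS of another coding gene.

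Among the 16 member regions held by all 8 lists, 10 were wider in every MDA-MB-453 list than in any SKBR3 list (29.7% of 17704 such regions genome-wide) and 1 was wider in every SKBR3 list (29.5%). By percentile, 8 were higher in every MDA-MB-453 list (26.2%) and 2 in every SKBR3 list (35.3%). The 2 were the region 6.61 kb upstream of ALOX15B and the one 28 kb upstream of the canonical TMPRSS2 TSS, the latter at 82.3 to 87.2 in SKBR3 and 47.8 to 59 in MDA-MB-453.

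**Figure D4:**
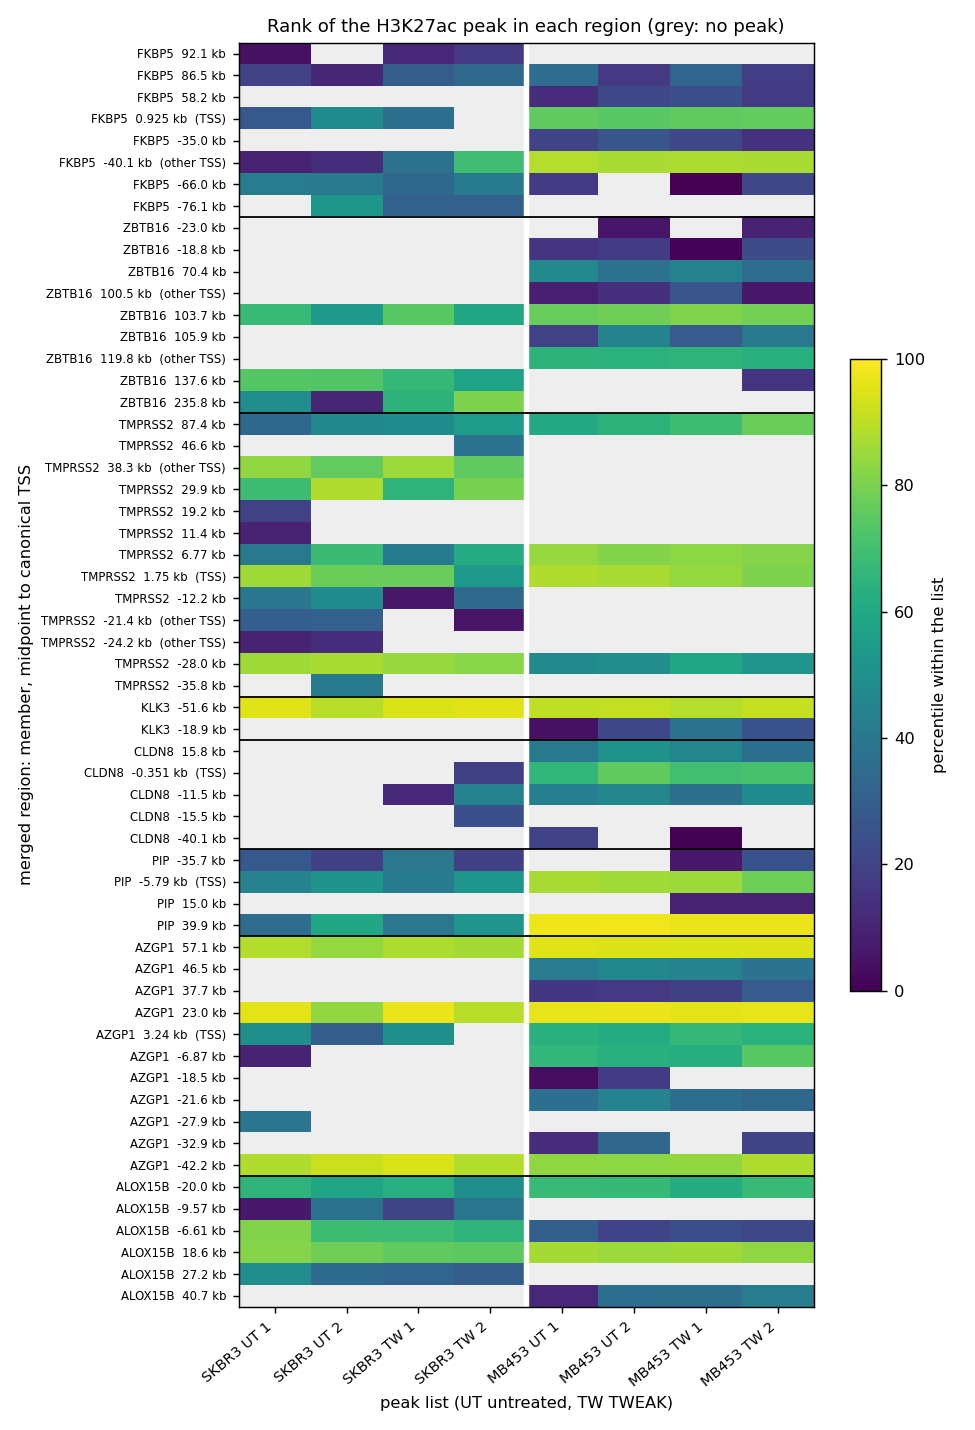
Percentile, within its own list, of the highest H3K27ac peak in each of the 58 merged regions (rows, with the distance of the midpoint from the canonical TSS in kb) in the 8 lists (columns, UT untreated, TW TWEAK, MB453 MDA-MB-453). Grey cells hold no peak. The PIP region at 39.9 kb is above 97 in every MDA-MB-453 list and below 60 in every SKBR3 list.

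The response element, with up to 2 mismatches in the 1000 bp around the midpoint, was present in 7 of 58 member regions (12.1%) and in 6.69% of all 76044 regions. With up to 1 mismatch it was present in 1 member region (1.72% against 0.508%), the FKBP5 intron. In 500 bp the shares were 3.45% and 3.39%. The forkhead motif TGTTTAC, on either strand, was found in 12 member regions (20.7%) and in 18.5% of all. Over whole regions, a measure chosen after seeing the data, member regions held 16 matches, or 10.1 per 100 kb, where all regions held 6.57. Of the 16, 7 lay in the FKBP5 window, 3 of them in the region at its canonical TSS, which SKBR3 peaks covered at 0 of these 3 sites.

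With TWEAK, 0 of the 8 members passed the test in covered length in either line (limma). In SKBR3, 1.59% of windows were called higher and 0.192% lower, and 3 members had an unadjusted p under 0.05. In MDA-MB-453, 0% of windows were called, with 381 of 18251 at an unadjusted p under 0.05, none of them a member. The test of whether the TWEAK difference itself differed between the lines called 0% of windows, with 1636 at an unadjusted p under 0.05 and CLDN8 the 1 member among them.

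The 3 members nearest to a call in SKBR3 were CLDN8, FKBP5 and TMPRSS2, and for each the TWEAK lists did not overlap the untreated ones. Non-overlap was not particular to these 3, and it was not counted over all windows. ZBTB16 in SKBR3 did not overlap either (4.3 and 4.84 kb without and 4.94 and 6.73 kb with TWEAK). In MDA-MB-453, FKBP5 and PIP did not overlap and were longer with TWEAK, and AZGP1 and ALOX15B did not overlap and were shorter. For CLDN8, the covered length was 0 and 0 kb without TWEAK and 0.561 and 1.55 kb with it (1.00 ± 0.22, limma, adjusted p = 0.0902). For FKBP5 it was 4.48 and 3.63 kb without and 5.71 and 6.79 kb with TWEAK (0.52 ± 0.13, limma, adjusted p = 0.121). For TMPRSS2 it was 19.7 and 21.8 kb without and 14.7 and 16.9 kb with TWEAK (-0.38 ± 0.12, limma, adjusted p = 0.196).

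In MDA-MB-453 the corresponding differences were -0.02 ± 0.22 for CLDN8, 0.25 ± 0.13 for FKBP5 and -0.06 ± 0.12 for TMPRSS2, each with an adjusted p of 1 (limma). The interaction for CLDN8 was -1.01 ± 0.32 (limma, adjusted p = 0.383). Leaving out SKBR3 TWEAK replicate 1 made CLDN8 a call in SKBR3 (1.35, limma, adjusted p = 0.00763) and in the interaction (-1.37, limma, adjusted p = 0.0249), which then rested on SKBR3 TWEAK replicate 2, the longest list. At q under 1e-05 no CLDN8 peak remained in SKBR3 and the difference was 0. With lists cut to equal size, FKBP5 was called in SKBR3 (0.96, limma, adjusted p = 0.0342). The part of list length in these differences was not tested further.

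**Figure D5:**
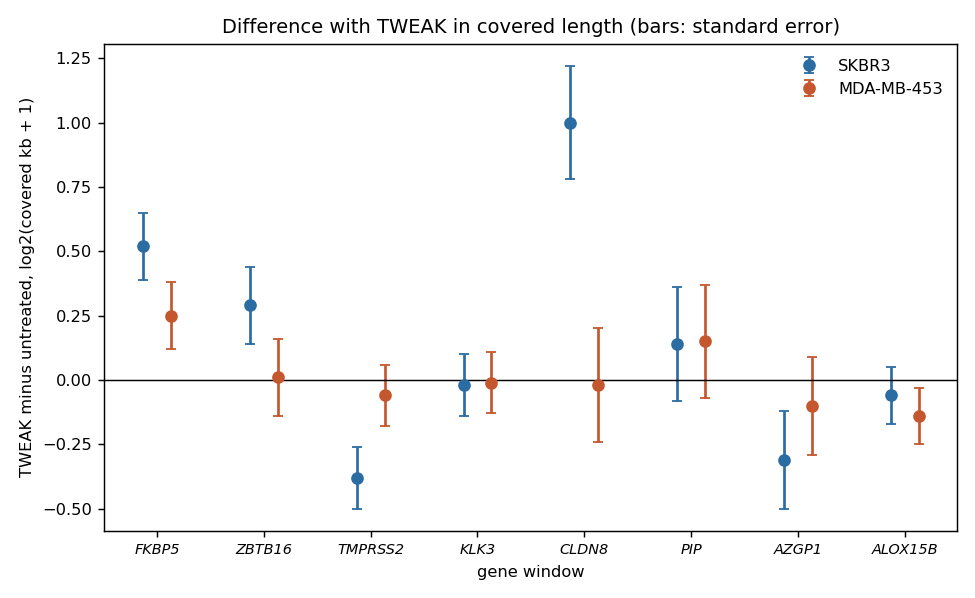
TWEAK minus untreated in log2(covered kb + 1) for each member window (points, with the standard error as bars) in SKBR3 (blue) and MDA-MB-453 (orange). CLDN8 at 1.00 and FKBP5 at 0.52 lie highest in SKBR3 and TMPRSS2 at -0.38 lowest, and none passed the test.

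Best percentile gave 0 members called with TWEAK in SKBR3, where 0.899% of windows were higher and 0.181% lower, and CLDN8 was the 1 member with an unadjusted p under 0.05 (28.1 ± 10.1, limma, adjusted p = 0.305). Without SKBR3 TWEAK replicate 1 it was called (44.5, limma, adjusted p = 0.0182). In MDA-MB-453, 0% of windows were called and 645 had an unadjusted p under 0.05, TMPRSS2 among them (-4.65 ± 1.94 points, limma, adjusted p = 1). The interaction called 0% of windows, with 1556 at an unadjusted p under 0.05 and 0 members among them.

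At the level of single regions, 2 of 44 member regions of SKBR3 were gained, that is held by both TWEAK lists and neither untreated list (4.61% of 62104 regions), and 1 was lost (1.4%). One gained region, chr6:35726258-35728571, lay at the upstream TSS of FKBP5, with ranks of 37.6 and 69.4 and widths of 1238 and 2314 bp. It lay within the broad MDA-MB-453 region there, which ranked at 87.2 or above in that line. The untreated SKBR3 peaks of the merged region lay apart, about 43 kb upstream of the canonical TSS. The other gained region, chr21:30227080-30227723, lay in a region 11.5 kb upstream of CLDN8 that the 4 MDA-MB-453 lists also held, with ranks of 11.7 and 44.5. The lost region, chr21:41531748-41532935, lay at an upstream TSS of TMPRSS2 and ranked at 10 and 13 in the untreated lists.

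None of these 3 regions was called at q under 1e-05, where the NNMT region of the ZBTB16 window was the 1 gained instead. Without SKBR3 TWEAK replicate 1, 6 of 44 member regions (13.6%) were gained, where 17% of all regions were, and 3 were lost (3.16% of all regions). A region gained with all lists stays gained by definition when a list is left out, as the FKBP5 region at the upstream TSS did. Lost regions also numbered 2 without SKBR3 untreated replicate 1 (5.07% of all regions), 5 when untreated replicate 2 was left out (9.27%) and 3 when TWEAK replicate 2 was (3.33%).

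In MDA-MB-453, 2 of 42 member regions were gained (1.33% of 42831 regions) and 1 was lost (1.3%). Both gained regions lay in the PIP window, at chr7:143095820-143096891 with ranks of 6.68 and 25 and at chr7:143146539-143147599 with 9.68 and 9.91. The lost region, chr7:99994437-99994700, lay in the AZGP1 window and ranked at 3.29 and 17.8. Without MDA-MB-453 TWEAK replicate 2, 2 were lost (2.72% of all regions). The 2 gained regions and the lost AZGP1 region all ranked at or below the 25th percentile. At q under 1e-05, 0 were gained. Another region of the AZGP1 window, chr7:99996952-99998163, was then the 1 lost of 26 (3.85% against 1.26% of all regions).

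For regions held by all 4 lists of a line, the TWEAK and untreated lists were compared for overlap, a count added after seeing the data. In SKBR3, of 25 member regions, 3 ranked higher in both TWEAK lists than in either untreated list (20.9% of 30803 regions) and 7 lower (17.4%), while 4 were wider (20.7%) and 6 narrower (15.7%). Of the 7, 3 lay at TMPRSS2 and 3 at ALOX15B. The canonical TMPRSS2 TSS was one, at 85.7 and 77.6 without TWEAK and 77.1 and 53.8 with it. It was also narrower, at 2394 and 2310 bp without and 1916 and 1804 bp with TWEAK. The FKBP5 intron region with the perfect element was among the 3 higher, at 19.6 and 10.9 without and 29.6 and 34.7 with TWEAK.

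In MDA-MB-453, of 34 member regions, 8 ranked higher with TWEAK (20.6% of 31162) and 6 lower (17.9%), while 3 were wider (18%) and 5 narrower (17.3%). The upstream FKBP5 region was one of the 3, at 5675 and 5966 bp without and 7055 and 7133 bp with TWEAK. It was called as 2 peaks with a gap in each untreated list and as 1 peak over nearly the same span in each TWEAK list. Its ranks overlapped, at 88.9 and 87.2 against 87.5 and 87.4. The TSS regions of PIP and TMPRSS2 were among the 6 lower. TMPRSS2 ranked at 88 and 87.3 without and 84 and 80.5 with TWEAK. The merged PIP region ranked at 86.8 and 86.3 without and 85.5 and 77.9 with TWEAK, by its best peak. That peak lay upstream of the TSS, except in TWEAK replicate 2, where 1 peak of 14715 bp spanned both. The peak over the PIP TSS itself ranked at 75.9 and 75.7 without and 75.6 and 77.9 with TWEAK, so it was not lower.

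Other genes of the pathway were taken from 3 lists. Of 8 genes for cofactors of steroid hormone receptors, 5 had more covered length in MDA-MB-453, 1 had less and 2 were not called, where 27% of all windows had more and 47.6% less. Their median was 0.27, where that of all windows was -0.23. The 5 were the transcription factor TFAP2B (1.38), GATA3 (1.13), TRPS1 (0.88), the corepressor TLE3 (0.35) and XBP1 (0.20), and SPDEF was lower (-0.25). FOXA1, the pioneer factor that opens chromatin for steroid hormone receptors, was covered over 29.3 to 34.7 kb in SKBR3 and 33.3 to 36.1 kb in MDA-MB-453, which overlapped (0.05 ± 0.07, limma, adjusted p = 0.501).

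Of 20 further androgen-responsive genes, 18 were tested, 5 were higher and 8 lower in MDA-MB-453. The higher were SORD (1.77), ELL2 (1.04), CAMKK2 (0.49), TSC22D3 (0.44) and KLK2 (0.38), whose window overlaps that of KLK3. The 5 lower by most were NDRG1 (-2.49), STEAP4 (-1.69), SLC45A3 (-1.40), SGK1 (-1.26) and PMEPA1 (-1.24). The median of the 18 was -0.30, where that of all windows was -0.23. With TWEAK in SKBR3, 3 of the 18 were higher, where 1.59% of all windows were, namely ORM1 (1.91, limma, adjusted p = 0.0172), ERRFI1 (0.61, limma, adjusted p = 0.0253) and PMEPA1 (0.47, limma, adjusted p = 0.0318), and 0 were called in MDA-MB-453.

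Of 16 further apocrine markers, 7 were higher and 8 lower in MDA-MB-453, and 0 were called with TWEAK in either line. The higher by most were CLCA2 (2.15), FGFR4 (1.65), MUCL1 (1.08), ABCC11 (1.06) and ALCAM (1.02). The lower by most were DHRS2 (-2.53), SERHL2 (-1.84), and the secretoglobins SCGB1D2 (-1.48) and SCGB2A2 (-1.42), followed by ACSM1 (-1.39). DHRS2, a short-chain dehydrogenase, was covered over 24.3 to 28.1 kb in SKBR3 and 3.31 to 3.93 kb in MDA-MB-453. The list's median was -0.37, where that of all windows was -0.23.

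The 3 genes whose covered length over the 8 lists was nearest to that of CLDN8, by Euclidean distance on the log2(kb + 1) scale, were RASGRF2 (0.407), CA8 (0.465) and RUBCNL (0.476). RASGRF2 was covered over 0.225, 0, 0.639 and 1.55 kb in SKBR3 and over 4.67, 4.32, 4.59 and 5.2 kb in MDA-MB-453.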

How the data were processed

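H3K27ac peak lists of 8 libraries were analysed (2 lines, with and without TWEAK, 2 replicates each), and the 2 inputs had no list. Per the submitters' processing notes and the study's methods, reads were trimmed with Trimmomatic and mapped to hg38 with Bowtie2, peaks were called with MACS2 with input subtracted, and blacklisted regions were removed. Versions and calling options are not given in the sources used here. The deposited lists give a score, 10 times the −log10 of the q-value as a whole number, the fold enrichment as a ratio, and a p-value and q-value as −log10, all written by the caller the authors used. Each was used within its own list only, since depth is unknown.

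Percentiles rank a list's peaks by the deposited score. Genes came from GENCODE release 44. Sequence names and chromosome ends matched the hg38 reference. Peaks overlapping by 1 bp were merged. Covered length, as log2(kb + 1), and best percentile (0 without a peak) were fitted with limma 3.58.1 (R 4.3.3, trend) over the 18251 windows with a peak in at least 2 lists, on all 8 lists in 4 groups, with Benjamini-Hochberg adjustment. This script was tested on simulated data. Counts of regions had no test. The study compared signal with DiffBind, which needs reads. Plots and tables used Python 3.11.15.

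All members were named in every list, with their TSS regions, up to 3 regions per line held by 1 line only, regions gained or lost, and up to 5 called genes per pathway list and direction. Members and lists were chosen with earlier results of these data known. Replicate numbers were not used to pair the libraries, since no source ties them to a shared culture or day: deviations of same-numbered lists correlated at 0.474 in SKBR3 and -0.037 in MDA-MB-453 in covered length, and at 0.291 and -0.083 in percentile. Alternatives were a pseudocount of 0.1 kb, scaling to total covered length, q under 1e-05, equal list size, other windows and filters, peaks at other genes' TSS left out, stricter overlap, 1 kb merging, the replicate block, leaving out each replicate, and stricter motif searches. A gene of the pathway lists and 1 sequence are not reported here.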

Additional observations from a re-analysis of the deposited data

How the results depend on the processing

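Depth is unknown, so absence from a list is not absence of the mark, and each group had 2 libraries. Leaving out replicates gave 7 to 8 members called between the lines in covered length and 4 to 5 in percentile. It gave 0 to 1 with TWEAK in SKBR3 by either measure and 0 to 1 in the interaction, the 1 being CLDN8 without SKBR3 TWEAK replicate 1. In MDA-MB-453 it gave 0. With the replicate block, 7 members were called between the lines in covered length, 4 in percentile and 0 with TWEAK, so it changed no count.

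At q under 1e-05, 4 members were called between the lines in covered length (AZGP1, CLDN8, FKBP5 and PIP), and ZBTB16 turned to -0.00. Scaling to total covered length turned ALOX15B to 0.24, and flanks of 100 kb left 2 calls in percentile (PIP and TMPRSS2) and turned CLDN8 to -2.11. With TWEAK in SKBR3, a pseudocount of 0.1 kb called 1 member (CLDN8) and equal list size 1 (FKBP5).

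Regions held by 1 line or all lists moved most. At q under 1e-05, 4 of 33 member regions were held by MDA-MB-453 only (12.1%, where 14.6% of all regions were), 4 by SKBR3 only (12.1%, where 11% were) and 8 by all lists (24.2%, where 28.7% were), so the excess of regions held by MDA-MB-453 only was not seen there. Equal list size left 2 of 53 for SKBR3 only (3.77% against 11.8% of all regions) and 14 for MDA-MB-453 only (26.4% against 14.8%). Requiring 50% of the region gave 20 of 58 for MDA-MB-453 only (34.5% against 11.9% of all regions). It gave 4 for SKBR3 only (6.9% against 11.9%) and 5 for all lists (8.62% against 8.68%). The gene body alone held 23 regions. It gave 3 for SKBR3 only (13% against 14.1% of all regions) and 6 for MDA-MB-453 only (26.1% against 10.5%). It gave 6 for all lists (26.1% against 23.3%). Flanks of 100 kb held 102 regions. They gave 12 for SKBR3 only (11.8% against 14.1%) and 16 for MDA-MB-453 only (15.7% against 10.5%). They gave 26 for all lists (25.5% against 23.3%). Among regions of all lists, at q under 1e-05 the percentile was higher in MDA-MB-453 for 4 of 8 (50% against 34.9% of all). It was higher in SKBR3 for 1 (12.5% against 25.3%), and the width was higher in MDA-MB-453 for 6 (75% against 28.7%). In the gene body these were 4, 0 and 4 of 6, with 0 wider in SKBR3, where 26.2%, 35.3%, 29.7% and 29.5% of all were. With 100 kb flanks, of 26, SKBR3 was higher in percentile for 7 (26.9% against 35.3%) and wider for 4 (15.4% against 29.5%). MDA-MB-453 was then higher in percentile for 8 (30.8% against 26.2%) and wider for 12 (46.2% against 29.7%).

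For TWEAK in SKBR3, gained regions numbered 1 of 22 at q under 1e-05 (4.55% against 5.56% of all regions). In the gene body they numbered 1 of 17 (5.88% against 4.61%), and with 100 kb flanks 4 of 80 (5% against 4.61%). Without single replicates they numbered 2 to 6 of 44 (4.55% to 13.6% against 7.24% to 17%). Lost regions numbered 0 at q under 1e-05 (0.691% of all regions), with 1 kb merging (1.44%) and in the gene body (1.4%). With 50% overlap they numbered 2 of 44 (4.55% against 2.11%) and with 100 kb flanks 3 of 80 (3.75% against 1.4%). Without single replicates they numbered 2 to 5 of 44 (4.55% to 11.4% against 3.16% to 9.27%). In MDA-MB-453, gained regions numbered 0 at q under 1e-05 (1.15% of all regions), with 50% overlap (1.92%) and in the gene body (1.33%). Without single replicates 2 to 3 of 42 were gained (4.76% to 7.14% against 2.74% to 5.05%). Lost ones then numbered 1 to 2 (2.38% to 4.76% against 2.72% to 5.31%), and in the gene body 0 (1.3% of all). Regions of higher percentile with TWEAK in SKBR3 numbered 1 of 18 at equal list size (5.56% against 16.4% of all). In the gene body they numbered 1 of 8 (12.5% against 20.9%) and with 100 kb flanks 7 of 43 (16.3% against 20.9%). Lower ones numbered 4 of 12 at q under 1e-05 (33.3% against 10.3%) and 3 of 8 in the gene body (37.5% against 17.4%). Wider ones numbered 0 of 12 at q under 1e-05 (19.4% of all) and 2 of 18 at equal list size (11.1% against 20.6%). In the gene body 1 of 8 was wider (12.5% against 20.7%) and 3 were narrower (37.5% against 15.7%). With 100 kb flanks 10 of 43 were narrower (23.3% against 15.7%). In MDA-MB-453, higher percentiles numbered 3 of 19 at q under 1e-05 (15.8% against 19.3% of all) and 5 of 33 at equal list size (15.2% against 19.3%). In the gene body, of 15, 2 were higher (13.3% against 20.6%), 2 lower (13.3% against 17.9%) and 1 narrower (6.67% against 17.3%).

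The element was held by 1 region with at most 1 mismatch and by 2 in 500 bp, and the forkhead motif by 7 in 500 bp. The cause was not tested for these shifts beyond the number of regions searched. Of 995 differences of single members under an alternative, 940 kept their direction and side of the threshold or moved by less than the replicate spread. Many of these were TWEAK or interaction differences, which were not called to begin with and mostly stayed uncalled. Of the line differences in covered length, 141 were kept, 2 reversed, 2 lost their call and 4 gained one. In percentile, 120 were kept, 1 reversed, 2 lost their call, 7 gained one and 3 moved.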

Other observations

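Some marker windows that belong to no comparison of the members differed between the lines by more than any member did. The window of CDH1, the epithelial cadherin, had more covered length in MDA-MB-453 (4.85 ± 0.08 on the log2(kb + 1) scale, limma, adjusted p = 1.43e-07), and its TSS held a peak in 0 of 4 SKBR3 lists. The window of PTPRC, the leukocyte gene CD45, had less in MDA-MB-453 (-3.87 ± 0.10, limma, adjusted p = 2.79e-07), although its TSS held no peak in any list. ERBB2 (-1.51 ± 0.08), KRT8 (-1.10 ± 0.06) and KRT18 (-1.22 ± 0.06) also had more covered length in SKBR3, by less than CLDN8 had in MDA-MB-453, and their TSS peaks were present in all 8 lists.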
